A study of Drosophila melanogaster with 3 samples.

Results

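The genes that encode the proteins of the cytosolic ribosome of Drosophila melanogaster were examined as a group in a map of where the protein CG17361 was recovered on embryonic chromatin. They were taken as every annotated gene whose symbol starts with RpL or RpS, with or without a P, followed by a number, which gave 92 of 18164 annotated genes. By symbol, 50 of these were counted with the large subunit, 38 with the small subunit and 4 as genes of the P stalk proteins or of a relative of them. The rule took in the 5 genes with a symbol ending in -like and left out the mitochondrial ribosomal proteins, whose symbols start with mRp.

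The map came from ChIP-seq of whole embryos aged 0 to 24 h that carried CG17361 tagged with eGFP, an enhanced green fluorescent protein, and chromatin fragments of 200 to 800 bp were precipitated with an antibody to the tag. All 3 libraries were labelled biological replicates of this 1 group, and the labels do not say if each came from its own collection of embryos. The values are the authors' peak lists, in which each peak has a summit and a signal, which is the authors' own score and is compared here only within a list. No other genotype or treatment was included, so the ribosomal protein genes are described beside other genes of the same lists, without a test, and since all libraries were of whole embryos, the cells in which a promoter was occupied cannot be told apart.

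Ribosomal protein genes are transcribed at high rates in nearly every cell, and their products are needed in matched amounts because each ribosome holds a single copy of most of them. In flies, loss of 1 copy of many of these genes gives the Minute phenotype of slow development and thin bristles. Their promoters commonly lack a TATA box and start transcription at a pyrimidine-rich TCT initiator, and the factors M1BP, TRF2 and DREF have been described at such promoters. CG17361 is a zinc finger protein, and no role at ribosomal protein genes is assumed here.

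A gene was called bound when the summit of a peak lay within 500 bp of one of its transcription start sites (TSSs). In the main list, which the authors named conservative, 74 of the 92 ribosomal protein genes were bound (80.4%), against 22.3% of all annotated genes and 26.4% of protein-coding genes. In the lists of the single replicates, 68 of the ribosomal protein genes were bound in replicate 1 (73.9%, against 19.3% of all genes), 51 in replicate 2 (55.4%, against 13.4%) and 63 in replicate 3 (68.5%, against 18.3%). The mean over replicates was 60.7 ± 8.74 genes (SD, n = 3). The ribosomal protein genes stood above the share of all genes in every list, and replicate 2, whose list was the shortest with 3797 peaks against 5942 in replicate 1 and 5576 in replicate 3, held the fewest of them. The lists give no read counts, and sequencing depth per replicate is therefore not known.

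Of the 74 bound ribosomal protein genes, 44 (59.5%) were bound in all 3 replicate lists as well, against 1944 of the 4055 bound genes of all kinds (47.9%). A further 16 were bound in 2 replicate lists and 10 in 1. The remaining 4 were in the main list alone, namely RpL40, which encodes a ribosomal protein made as a fusion with ubiquitin, RpS30, made as a fusion with a ubiquitin-like protein, RpS13, and RpLP0-like. Those 4 had main signals of 156, 139.6, 90.1 and 135, and so were all among the weaker peaks of the group.

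Signal at the bound ribosomal protein genes had a median of 339, with quartiles of 216 and 447 and a range of 90.1 to 889. The 3981 other bound genes had a median of 269.9, and 48 of the 74 ribosomal protein genes lay above it. By rank among all 7804 main peaks, 5 of their strongest peaks were among the first 500, 17 among the first 1000 and 41 among the first 2000. The same counts were not made for the other bound genes, so they are not read as a trait of the group. The median rank, as a percentage of the list counted from the strongest peak, was 24.1% for the ribosomal protein genes and 35.5% for the other bound genes. It was 28.8% against 35.1% in replicate 1 and 31.9% against 39.2% in replicate 3, but 42.5% against 36.5% in replicate 2. Ribosomal protein genes thus ranked higher than other bound genes in the main list and in replicates 1 and 3, and lower in replicate 2. The main list was selected by comparing replicates 1 and 3, as described below, so it is not separate from those 2 lists.

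**Figure D1:**
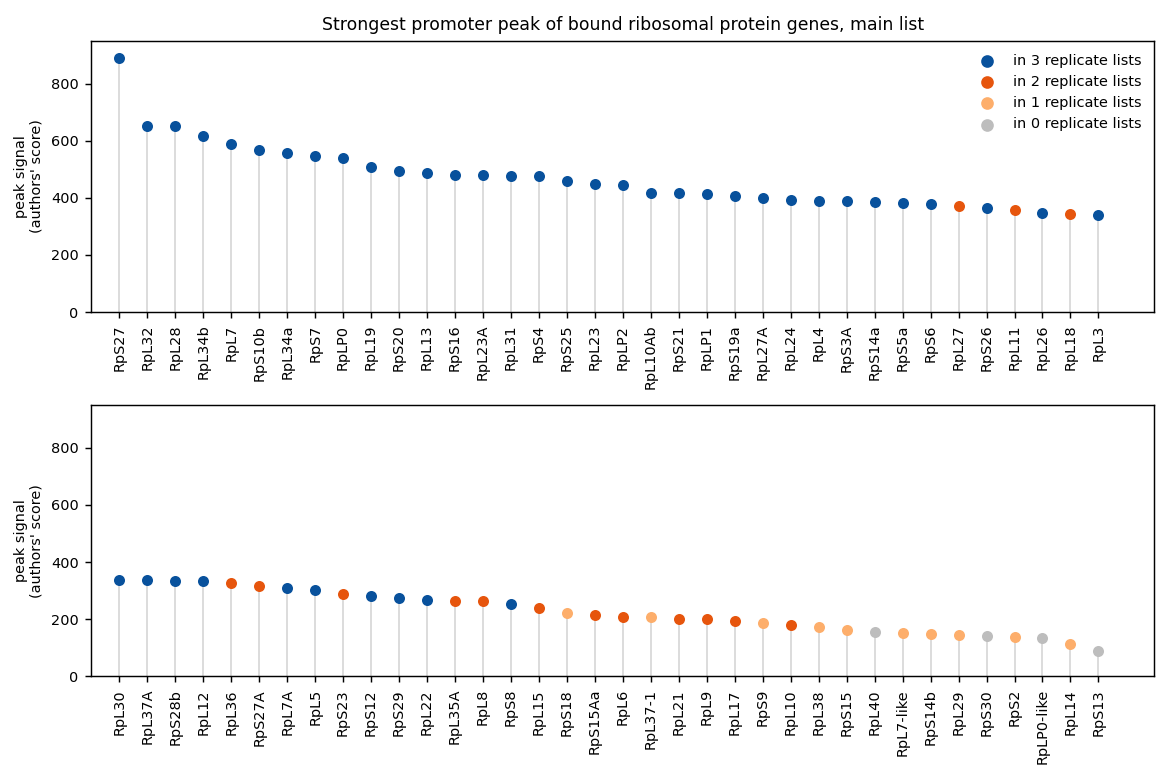
Signal (the authors' score, vertical axis from 0) of the strongest promoter peak of 72 of the 74 bound ribosomal protein genes in the main list, in falling order over both panels, coloured by the number of replicate lists that also held a promoter peak of the gene. The values run from 889 at RpS27 to 90.1 at RpS13, and the 4 genes in no replicate list all lie in the lower panel.

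The strongest of these peaks was at RpS27, a zinc-binding protein of the small subunit, on chr3R:25247280-25247969. Its main signal was 889, at rank 103 of the list, and its signals in the single replicates were 335 in replicate 1, 218 in replicate 2 and 355 in replicate 3. By rank it was within the first 1.45%, 5.03% and 0.99% of those lists, ahead of every other ribosomal protein gene. The summit lay 30 bp upstream of the RpS27 TSS, within 500 bp of the TSSs of Nup37, a nuclear pore gene, and of the noncoding RNA sisRNA:CR46364.

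Several of the other strong peaks were at large subunit genes, which also made up 41 of the 74 bound genes. RpL32, long used as a constant reference transcript in fly expression work under the name rp49, had a main signal of 651 (249, 182 and 236 in replicates 1, 2 and 3), with its summit 194 bp upstream of the TSS. RpL28 had 650.3 (268, 188 and 216), with its summit 105 bp upstream and shared with eIF1, the gene of a factor that helps select the start codon. Both were therefore close together in the main list, and in each of them replicate 2 gave the lowest value. RpL34b had 615 (206, 193 and 222), and its copy RpL34a had 556 (212, 114 and 235). Between these came RpL7, at 588 (197, 162 and 229), whose summit fell 20 bp downstream of the TSS, and RpS10b of the small subunit, at 567 (261, 101 and 225). RpS7 at 546 (218, 126 and 193) and RpLP0 at 538 (223, 129 and 189) were also among the 10 strongest. RpLP0 is the base of the P stalk, the part of the large subunit that recruits elongation factors. Replicate signals are on each replicate's own scale, so that a lower value in replicate 2 is not by itself a weaker peak.

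The sequences under these summits are shown because they bear on what the group shares. Each run is the strand of the gene, 5′ to 3′, in the dm6 assembly, taken from the Release 6 reference genome of RefSeq, covering 50 bp to each side of the summit and cut where an annotated exon starts. Capitals mark CGATA on either strand, the core of the DNA replication-related element (DRE) that the factor DREF binds.
RpS27 (chr3R:25247515-25247594, minus strand): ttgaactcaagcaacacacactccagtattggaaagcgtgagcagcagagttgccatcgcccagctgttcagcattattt
RpL32 (chr3R:30046305-30046405, minus strand): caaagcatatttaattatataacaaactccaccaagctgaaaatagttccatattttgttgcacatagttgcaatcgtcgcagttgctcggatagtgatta
RpL28 (chr3L:3223015-3223115, minus strand): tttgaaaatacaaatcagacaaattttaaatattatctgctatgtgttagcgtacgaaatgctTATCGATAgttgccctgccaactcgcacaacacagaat
RpL34b (chr3R:9401292-9401392, minus strand): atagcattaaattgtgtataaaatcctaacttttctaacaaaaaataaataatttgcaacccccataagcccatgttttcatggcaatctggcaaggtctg
RpL7 (chr2L:10200975-10201003, plus strand): cccactccgcggccagtgtgaccgtttgg
RpS10b (chrX:19597916-19598016, plus strand): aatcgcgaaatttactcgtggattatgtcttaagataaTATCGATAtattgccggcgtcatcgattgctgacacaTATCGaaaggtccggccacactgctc
RpL34a (chr3R:26059351-26059451, minus strand): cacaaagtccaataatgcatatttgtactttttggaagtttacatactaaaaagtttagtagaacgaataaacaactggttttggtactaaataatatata
RpS7 (chr3R:30209021-30209116, minus strand): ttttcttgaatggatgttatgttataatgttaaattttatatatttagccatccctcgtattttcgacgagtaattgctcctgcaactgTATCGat
RpL28 and RpS10b held the whole palindrome TATCGATA, and that of RpS7 ran on into the exon, past the end of the stretch shown. RpL32, RpL34b and RpL34a held no CGATA within these letters and were rich in A and T, with 34.7%, 32.7% and 25.7% G or C. RpS27 held no CGATA either, with 47.5% G or C over the 80 bases shown, and of the RpL7 window only 29 bases lay outside annotated exons.

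Among the 44 genes bound in all 3 replicate lists, the order of signals agreed only in part between replicates. Spearman's rho was 0.56 between replicates 1 and 2, 0.66 between replicates 1 and 3, and 0.53 between replicates 2 and 3, given as a description over 44 genes of the same libraries. RpS27, RpL32, RpL28, RpL34b and RpL7 ranked high in each replicate. Others moved widely. RpLP2, of the P stalk, ranked at 15.8% and 14.1% of the lists of replicates 1 and 3 but at 70.6% in replicate 2, and RpL23, of the large subunit, ranked at 12.9%, 36.3% and 57.5% in replicates 1, 2 and 3.

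**Figure D2:**
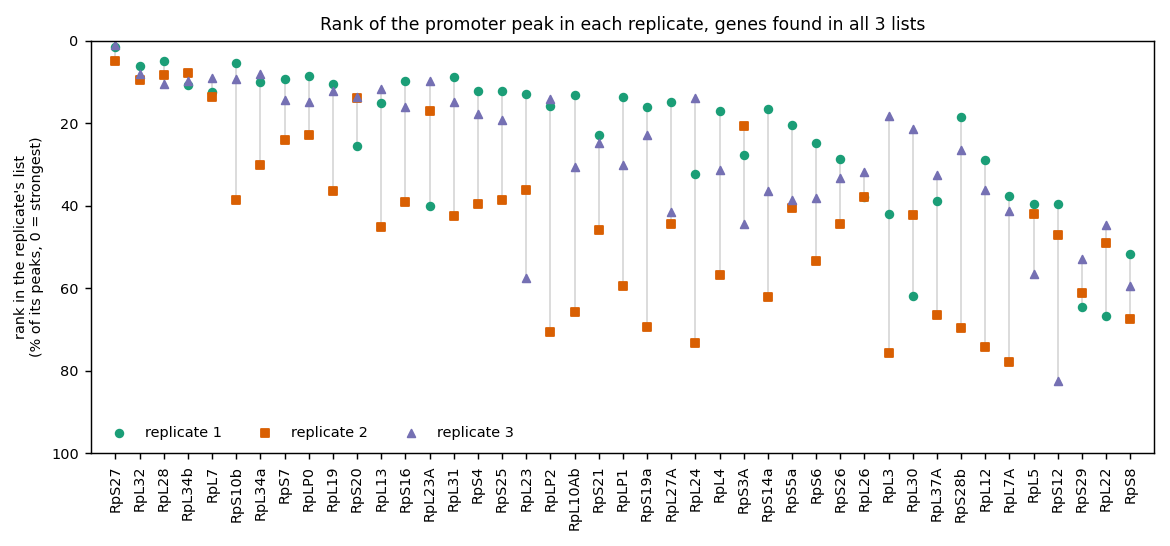
Rank of the promoter peak in each replicate's own list, as a percentage of its peaks with 0 the strongest (vertical axis, inverted), for 43 of the 44 ribosomal protein genes found in all 3 lists, ordered by main signal. Points are the 3 replicates and the line joins them. The genes at the left are high in each replicate, while genes further right spread widely, with replicate 2 often the lowest.

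By subunit, 41 of 50 large subunit genes were bound (82%), with a median signal of 337. Of the small subunit genes 29 of 38 were bound (76.3%), with a median of 334, and all 4 P stalk genes were bound, with a median of 429. Large and small subunit genes therefore had nearly the same median signal. In the replicates, 38, 30 and 33 of the 50 large subunit genes and 27, 18 and 27 of the 38 small subunit genes were bound. Of the P stalk genes, RpLP0 (538), RpLP2 (445) and RpLP1 (412) were in all 3 replicate lists. RpLP0-like (135), whose product resembles a yeast assembly factor that takes the place of the stalk base in unfinished subunits, was in none.

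Several genes with known special roles in growth or ribosome assembly, or with an unusual position, had signals in the middle and upper part of the range. RpS6, the substrate of the growth-regulated S6 kinase, had a main signal of 378, with 151, 82.4 and 127 in replicates 1, 2 and 3. Its summit lay 135 bp upstream, and the same peak was within 500 bp of the TSS of bys, a gene for assembly of the small subunit. RpL5 and RpL11, which join the 5S ribosomal RNA in a particle of its own, had 303 and 357. RpL11 was missing from the list of replicate 2. RpS3A, the single ribosomal protein gene on chromosome 4, had 388 (144, 135 and 118). RpL13 had 488 (183, 92.0 and 209), and its summit, 52 bp upstream of its TSS, was also 32 bp upstream of the TSS of Dref, which encodes DREF and runs the other way.

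Small nucleolar RNAs (snoRNAs), which guide modification of ribosomal RNA, lie in introns of many of these genes. The 28 ribosomal protein genes with an annotated snoRNA inside them included 25 bound ones, with a median signal of 357. The 64 without one included 49, with a median of 334. RpS5a held 14 annotated snoRNAs and had a signal of 382, and RpS7 held 7. The medians of hosts and of other genes were thus close.

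Several ribosomal proteins have a second gene or a gene with a related symbol, and in most of these families only 1 copy was bound. Matching symbols gave 13 families with 27 genes, of which 17 were bound (63.0%). Each gene of a family is called a copy here, but a shared symbol does not show that a -like gene encodes the same ribosomal protein. The other 65 ribosomal protein genes included 57 bound ones (87.7%). Every family had at least 1 bound copy. In 9 families exactly 1 copy was bound, and 9 of the 10 unbound copies were in no replicate list either, the exception being RpS28a with a signal of 83.3 in replicate 1.

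RpS5a, on X, had a main signal of 382 (165, 97.8 and 126 in replicates 1, 2 and 3), and RpS5b, known for its use in the female germ line, had no thresholded peak. RpS10b (567) and RpS10a, RpS19a (405) and RpS19b, RpL10Ab (417) and RpL10Aa, RpL22 (268) and the RpL22-like gene, known from the testis, RpL24 (393) and RpL24-like, RpL37-1 (206) and RpL37-2, and RpS15Aa (214) and RpS15Ab gave the same split. RpS28b had 334 while neither RpS28a nor RpS28-like was bound. The bound copy was the one whose name carries no -like ending in each of the families that has such a gene and differed. For RpS19b, a main summit with a signal of 304 lay at -862 bp from the TSS, outside the limit.

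Both copies were bound in the other 4 families. RpL34a and RpL34b, given above, were both strong and in all 3 replicate lists. RpL7 (588) and RpL7-like (152), RpLP0 (538) and RpLP0-like (135), and RpS14a (385) and RpS14b (149.8) each had 1 strong and 1 weak copy. RpS14a and RpS14b lie next to each other on X and are nearly the same in sequence, so reads could be assigned to either, and their values are uncertain. The weak copies were in at most 1 replicate list, RpL7-like with 89.7 and RpS14b with 72.4 in replicate 3.

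The 100 bp upstream of the first TSS are shown for 6 of the 9 families in which the copies differed, as bound copy and then unbound copy, on the strand of the gene, in dm6, from the same reference, with CGATA in capitals. RpS10b, whose window is given above, belongs with RpS10a.
RpL10Ab (chr3L:11822751-11822850, plus strand): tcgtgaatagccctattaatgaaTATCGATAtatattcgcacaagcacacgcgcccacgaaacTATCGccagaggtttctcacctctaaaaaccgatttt
RpL10Aa (chr3R:15037266-15037365, plus strand): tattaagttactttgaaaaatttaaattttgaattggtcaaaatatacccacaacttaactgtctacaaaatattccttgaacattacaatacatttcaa
RpS5a (chrX:17148265-17148364, minus strand): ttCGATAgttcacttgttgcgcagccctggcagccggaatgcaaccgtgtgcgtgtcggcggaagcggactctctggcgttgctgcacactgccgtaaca
RpS5b (chr3R:14901564-14901663, minus strand): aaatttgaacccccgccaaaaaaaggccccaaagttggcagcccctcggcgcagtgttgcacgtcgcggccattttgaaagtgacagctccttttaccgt
RpS19a (chrX:16637794-16637893, plus strand): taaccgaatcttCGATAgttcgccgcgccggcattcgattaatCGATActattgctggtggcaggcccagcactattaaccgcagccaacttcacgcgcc
RpS19b (chr3R:23933531-23933630, minus strand): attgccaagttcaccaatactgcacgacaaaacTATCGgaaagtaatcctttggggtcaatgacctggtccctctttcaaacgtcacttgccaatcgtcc
RpS28b (chrX:9554523-9554622, plus strand): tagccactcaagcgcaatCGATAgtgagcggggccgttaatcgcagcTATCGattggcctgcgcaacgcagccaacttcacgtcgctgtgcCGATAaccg
RpS28a (chr3R:30022649-30022748, minus strand): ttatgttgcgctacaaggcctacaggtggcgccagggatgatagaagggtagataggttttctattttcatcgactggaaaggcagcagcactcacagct
RpL24 (chr2L:13395132-13395231, minus strand): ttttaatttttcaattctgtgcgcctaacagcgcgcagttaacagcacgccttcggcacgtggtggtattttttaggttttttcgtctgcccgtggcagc
RpL24-like (chr3R:11431583-11431682, minus strand): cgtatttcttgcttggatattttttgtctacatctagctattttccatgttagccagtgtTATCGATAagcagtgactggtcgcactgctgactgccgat
RpS10a (chr3R:27652660-27652759, plus strand): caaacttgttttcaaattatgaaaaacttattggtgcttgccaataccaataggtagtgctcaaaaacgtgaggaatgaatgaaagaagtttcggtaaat
CGATA was present within these 100 bp in 8 of the 9 bound copies of the families that differed, RpL24 being the one without, and in 4 of the 10 unbound copies, namely RpL24-like, RpL37-2, RpS15Ab and RpS19b. In the RpL24 family the order was turned round, since the unbound RpL24-like held the whole palindrome TATCGATA.

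Outside these families, 8 ribosomal protein genes were not bound, and 5 of them were bound in a replicate list. RpS3, a small subunit protein at the entry of the messenger RNA channel, had 99.1 in replicate 1 and 109 in replicate 3. In replicate 1, RpL36A had 158 and RpL39 had 134. RpL41, the smallest ribosomal protein, had 114 in replicate 2. RpL13A, RpL35 and RpS24 were in none of these lists.

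In the ranked list behind the main list, which also holds peaks that did not pass the irreproducible discovery rate (IDR) limit of 0.01, 8 of the 18 unbound ribosomal protein genes had a promoter peak and 10 had none. RpL13A stood apart, with a signal of 445 and a −log10 IDR of 5 at 115 bp upstream of its TSS. It also had signals of 211, 101 and 127 in the ranked lists of replicates 1, 2 and 3. By IDR it was past the limit, yet it was in no thresholded list, like 170 lines of the ranked main list in all. The step that removed them is not given in the sources used here. RpS24 missed the limit narrowly, at a −log10 IDR of 1.98 with a signal of 133, and RpL39 (198), RpS3 (229), RpS5b (32.9), RpS15Ab (95.1) and RpL35 (106) lay between 0.58 and 1.73. On the other side of the distance limit, RpS28b and RpL40 were the bound genes with the furthest summits, both 377 bp upstream.

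**Figure D3:**
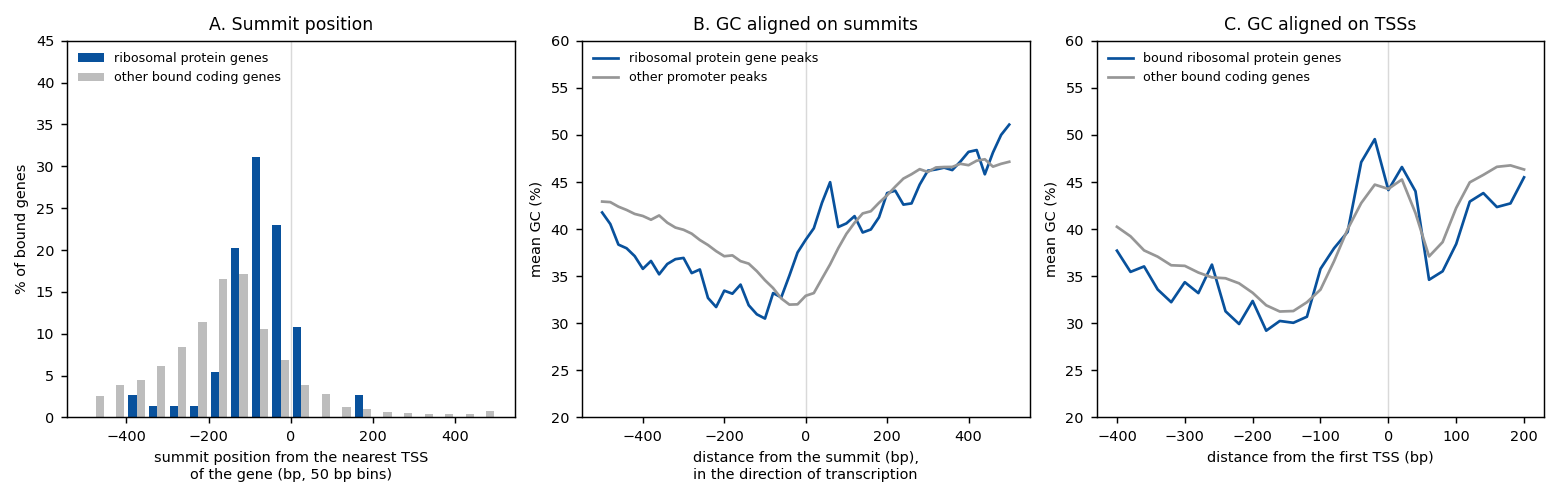
A, summit position from the nearest TSS of the gene (bp, negative upstream) as a percentage of the 74 bound ribosomal protein genes and of 3613 other bound coding genes, in 50 bp bins. B, mean GC content in 21 bp windows against distance from the summit, read in the direction of transcription, for 74 ribosomal protein gene peaks and 3529 other promoter peaks. C, the same aligned on the first TSS of the gene. The ribosomal protein gene summits lie nearer the TSS, downstream of an AT-rich stretch that is present in both sets of promoters.

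Summits at ribosomal protein genes lay close to the TSS. Their median position was 76 bp upstream, with quartiles at -119 and -30.8 bp, whereas the 3613 other bound coding genes had a median of 160 bp upstream (-160). Upstream summits made up 86.5% of the ribosomal protein genes, 64 of 74, and 88.0% of the other coding genes. In replicates 1, 2 and 3 the shares were 92.6%, 94.1% and 77.8%, against 89.8%, 91.3% and 88.7%, so replicate 3 had fewer upstream summits at ribosomal protein genes. In the main list the sets differed in how far upstream, since 55 of 74 ribosomal protein gene summits (74.3%) lay within 150 bp upstream, against 34.5% of the others. The median distance was 102, 76 and 65 bp in replicates 1, 2 and 3, against 180, 171 and 170 bp for other coding genes, so each replicate showed the shorter distance. For the 44 genes in all 3 lists, the summit moved by a median of 62 bp between replicates. Mitochondrial ribosomal protein genes, 38 of 73 of them bound, had a median position of -150.5 bp with 44.7% within 150 bp upstream, and 17 bound translation initiation factor genes of 44 had -107 bp with 64.7%.

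The sequence under the summits differed as well. At ribosomal protein genes, GC content averaged 38.8% over the 50 bp on each side of the summit, the same as the 38.8% in windows of equal length 250 bp to each side. Other promoter peaks had 33.0% at the summit against 42.0% in their flanks. In the replicates, the summits of ribosomal protein genes had 35.4%, 39.2% and 39.3% (mean 37.9 ± 2.23, SD, n = 3), against 32.1%, 30.2% and 32.3% for other promoter peaks (mean 31.5 ± 1.19). The difference from the flanks was -3.78, -0.80 and -0.13 percentage points at ribosomal protein genes, against -9.55, -12.9 and -9.82 at other promoter peaks, so ribosomal protein genes had a small dip in replicate 1 and less than 1 percentage point in replicates 2 and 3.

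Aligned on the TSS instead, both sets of promoters had an AT-rich stretch at a similar position. The lowest mean GC content of bound ribosomal protein promoters was 29.2%, at 180 bp upstream, and that of other bound coding promoters was 31.2%, at 160 bp upstream. Elsewhere the profiles differed, and ribosomal protein promoters had 49.5% against 44.7% at 20 bp upstream, 47.1% against 42.8% at 40 bp upstream and 29.9% against 34.2% at 220 bp upstream. Aligned on the summit and read along the gene, the lowest GC lay 100 bp upstream of the summit at ribosomal protein genes (30.5%), but 40 bp upstream at other promoter peaks (32.0%). Ribosomal protein promoters thus had an AT-rich stretch, and the summit lay on its side towards the gene. The difference at the summit was also present among summits within 150 bp upstream of the TSS. There the mean was 38.9% for 55 ribosomal protein gene summits, against 33.0% for 1292 other promoter peaks. Position was not matched within that zone. At -150 to -100, -100 to -50 and -50 to 0 bp lay 15, 23 and 17 ribosomal protein gene summits. Other bound coding genes had 618, 381 and 249 there, so a larger share of theirs lay further upstream. At other bound coding promoters, mean GC content was 31.3% at -140 bp and 44.7% at -20 bp. Whether the difference holds at equal positions was not tested. Signal and GC content were unrelated among the 74 ribosomal protein gene peaks (Spearman's rho 0.04), while among the 3529 other promoter peaks rho was -0.46, both as descriptions across peaks of the same libraries.

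DRE sequences were more frequent at these summits than at other promoter peaks. The palindrome TATCGATA lay within 50 bp of the summit at 12 of 74 ribosomal protein genes (16.2%), in 3.09% of other promoter peaks and in 5.19% of windows of equal length at coding promoters. In windows 250 bp to each side of the ribosomal protein gene summits it was found in 2.03%. With windows of 25 bp to each side the share was 5.41%, against 1.30% of other promoter peaks, and with 100 bp it was 21.6%, against 6.60%. The genes with the palindrome within 50 bp included RpL10Ab, RpL19, RpL27, RpL28, RpL36, RpL7-like, RpS7, RpS10b, RpS13, RpS25 and RpS29. Both subunits and nearly the whole range of signal were represented, although 8 of the 12 were in the upper 37 by signal, and the median signal was 437 with the palindrome and 335 for the 62 without. In the replicates it was found at 11.8%, 17.6% and 11.1% of ribosomal protein gene summits, against 2.72%, 1.45% and 2.95% of other promoter summits.

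The core CGATA, which lies within TATCGATA, was found on either strand in 37.8% of ribosomal protein gene summits, in 18.9% of other promoter peaks and in 26.1% of coding promoters. Within 100 bp of the summit there were 17 palindromes at 16 ribosomal protein genes. Of these 14 were upstream of the TSS. Over all 17, the median position was 40 bp upstream of the TSS. Their median distance from the summit was 40 bp, among matches already limited to 100 bp. At RpL36 the palindrome lay 1 bp from the summit, at RpS10b 8 bp and at RpS25 11 bp away. Among the summits within 150 bp upstream, 18.2% of those at ribosomal protein genes and 5.88% of the other promoter peaks held it.

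The palindrome did not separate bound from unbound ribosomal protein genes. It was present in the 100 bp upstream of the first TSS in 17 of the 74 bound genes (23.0%) and in 5 of the 18 unbound genes (27.8%), against 6.09% of the other coding genes. CGATA was there in 58.1% of bound and 44.4% of unbound ribosomal protein genes and in 28.1% of other coding genes. The 100 bp upstream of 4 unbound genes that have no second copy are shown, on the strand of the gene with CGATA in capitals.
RpL13A (chr3R:5624374-5624473, plus strand): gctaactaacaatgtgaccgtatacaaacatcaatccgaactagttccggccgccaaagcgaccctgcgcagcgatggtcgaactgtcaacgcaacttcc
RpL35 (chrX:5672301-5672400, plus strand): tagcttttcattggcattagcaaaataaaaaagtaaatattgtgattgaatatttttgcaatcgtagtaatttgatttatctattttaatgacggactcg
RpS3 (chr3R:23358712-23358811, plus strand): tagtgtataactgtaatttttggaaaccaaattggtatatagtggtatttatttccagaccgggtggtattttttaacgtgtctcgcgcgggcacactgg
RpL36A (chr2L:8042910-8043009, minus strand): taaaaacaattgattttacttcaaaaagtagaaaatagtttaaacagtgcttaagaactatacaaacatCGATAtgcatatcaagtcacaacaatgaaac
RpL36A held CGATA, whereas RpL13A, RpL35 and RpS3 held none. None of these held the whole palindrome, so they are not examples of the unbound genes that did. RpL13A, RpS3 and RpL36A also had the peaks outside the main list given above.

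**Figure D4:**
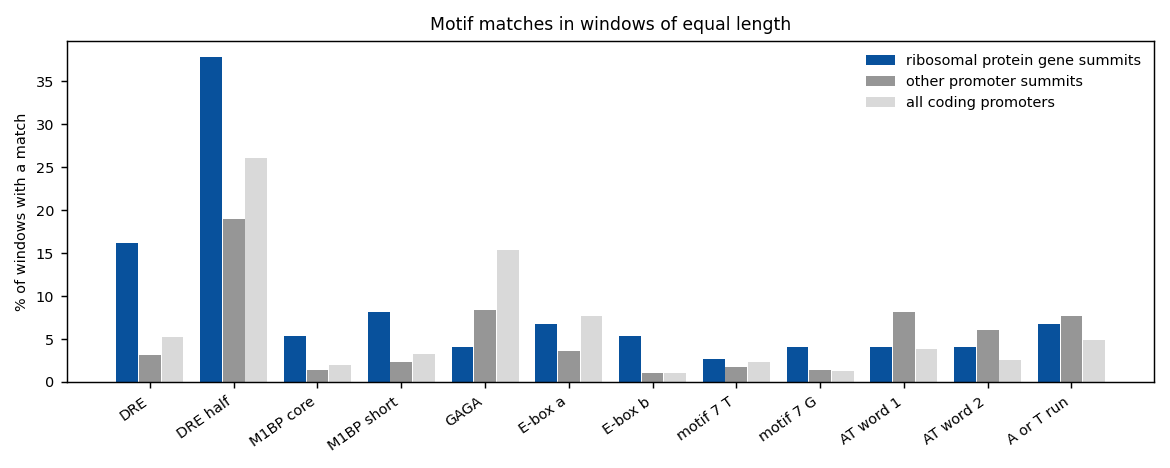
Percentage of 101 bp windows with a match to each of 12 sequence words on either strand, for 74 ribosomal protein gene summits, 3529 other promoter summits and 19607 windows at coding promoters. Ribosomal protein gene summits are above other promoter summits for the first 4 words, both E-boxes and both forms of motif 7, and below them for the GAGA word, AT words 1 and 2 and the A or T run.

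Of the other words searched on both strands, the M1BP sequence GGTCACACT was found at RpL7, RpL37A, RpLP0 and RpS9, 4 of 74 (5.41%), against 1.36% of other promoter peaks and 1.95% of coding promoters. Within 25 bp of the summit it was at 0% of ribosomal protein genes, against 0.85% of other promoter peaks, and within 100 bp at 9.46%, against 3.51%. Among summits within 150 bp upstream of the TSS, the shares were close. There GGTCACACT was at 1 of 55 ribosomal protein gene summits (1.82%), against 1.93% of 1292 other promoter peaks. The summits of RpL7, RpL37A and RpS9 lay downstream of the TSS, at 20, 9 and 24 bp, and so outside that zone. In replicates 1, 2 and 3, GGTCACACT was at 7.35%, 5.88% and 6.35% of ribosomal protein gene summits, against 0.90%, 0.61% and 1.36% of other promoter summits. Its shorter part GTCACAC was found in 8.11% of the 74 main summits, RpL30 included, against 2.35%. The E-box CACGTG (E-box b in the plot), the kind that Myc and Max bind, was found at RpL7, RpL11, RpL14 and RpL24 (5.41%, against 1.05%), but also in 8.11% of the windows 250 bp to each side. GAGAG, the core of GAGA factor sites, was at 3 genes (4.05%, against 8.36% of other promoter peaks and 15.3% of coding promoters). The AT-rich word TTTAAAAA was in 4.05%, against 8.10%. Uninterrupted runs of at least 15 A or T were about as frequent at ribosomal protein gene summits (21.6%) as at other promoter peaks (23.2%). These shares rest on a handful of genes each, and a match describes the sequence only.

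The TCT initiator was scored as CTTT within 5 bp of an annotated TSS, and by this measure 58 of 92 ribosomal protein genes had it (63.0%), against 7.70% of 13853 other coding genes. It was present at 51 of the 74 bound genes and at 7 of the 18 unbound ones. Among the other coding genes, 32.1% of the 1067 with CTTT were bound and 25.6% of those without. The unbound genes that lacked it included RpL36A, RpL41 and 8 copies from the families above, among them RpL10Aa, RpL22-like, RpS10a and RpS19b.

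Many of these promoters are shared, and so are others, since 4055 genes were bound through 3603 promoter peaks in the main list. How often other bound genes have a coding neighbour was not counted, so sharing is not given as particular to this group. Another coding gene had a TSS within 500 bp of the summit at 37 of the 74 bound ribosomal protein genes, on the opposite strand in 36 of them. The median signal was 405 at these 37 and 287 at the 37 without such a neighbour. Of the 10 strongest, RpS10b and RpS7 had no other gene near the summit. At 8 of the 37 the summit was nearer to the TSS of the neighbour, so that the peak cannot be assigned to 1 of the 2 genes from its position. Summits were upstream of the ribosomal protein gene in 33 of the 37 shared and 31 of the 37 unshared promoters, at medians of -92 and -72 bp. Besides eIF1, Dref and bys, the neighbours included Nelf-E at RpL14 and Rok at RpS19a. At least 2 main peaks lay at the promoter of 31 bound ribosomal protein genes (41.9%), against 25.4% of other bound coding genes.

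By chromosome arm, 14 of 14 ribosomal protein genes on 3L, 13 of 14 on X, 17 of 19 on 2L, 15 of 23 on 3R, 14 of 21 on 2R and the 1 on chromosome 4 were bound. Of the 10 unbound copies in families, 6 were on 3R and 3 on 2R, so that the lower counts on those arms include them. The share of all genes bound on each arm was not counted, so differences between arms are not given as particular to this group.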

How the data were processed

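The authors deposited ranked and thresholded peak lists for each of the 3 replicates and for the whole series, called against a control library on dm6, per the file listings. For the aligner and the peak caller, nothing was given in the sources used here. The signal of a peak, a score in the authors' deposited lists, has no stated scale. The authors' IDR was deposited as −log10, and each thresholded line had 2 or more, an IDR of 0.01 or less.

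Ranked files of the series name both lists that IDR compared. By identity of intervals and signals with the replicates' own lists (63.3% to 94.1% of lines), the main, conservative list compares replicates 1 and 3. The file listings give the alignments of all 3 replicates as the source of each series list. Repeated intervals were merged, keeping the strongest line, on 6 chromosome arms. TSSs came from Ensembl release 115 for BDGP release 6, without transposable elements, and sequence from RefSeq's Release 6 genome. Python 3.11.15, numpy 2.4.6, scipy 1.17.1 and, for figures, matplotlib 3.10.9 were used, and assignment of summits was tested on simulated data.

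The members and the lists of other genes were chosen with earlier results of these data known. Every member could be named. Full values were given for the 10 strongest, the unbound and the copies, and sequences for the strongest peaks, copies that differed and unbound genes. A few genes are counted but not reported here by name. The comparisons among summits within 150 bp upstream of the TSS and within families were added after seeing the data.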

Additional observations from a re-analysis of the deposited data

How the results depend on the processing

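Each of the 4 main values was recomputed under other settings, 32 values in all, and 4 of them moved. Bound ribosomal protein genes numbered 74 in the main list, and 53 and 59 in the lists that compare replicates 2 and 3 or 1 and 2. Those lists had median signals of 389 (replicates 2 and 3) and 382 (replicates 1 and 2), against 339 in the main list, which compares replicates 1 and 3. Per the file listings, every series list derives from the alignments of all 3 replicates, so none of them leaves a replicate out. The medians of 389 and 382 equal the main-list signals of RpL4 and RpS5a, so peaks appear to keep the same score in each list. The lists differed in which peaks were kept, and dependence of signal, summit position or GC content on 1 replicate was not tested by them. At an IDR limit of 0.001 the median signal was 384, with 58 genes bound. Requiring the summit to lie in a peak of every replicate left 43 genes bound. The other 28 values moved by less than the spread between replicates, or 1.5 times for counts. They include 72 and 76 bound genes at TSS limits of 250 and 1000 bp and a GC content of 38.7% and 37.9% with windows of 25 and 100 bp to each side. Shares of windows with a sequence word moved in 20 of 24 alternatives, all built from windows of 25 or 100 bp to each side in place of 50 bp. No paired analysis was possible because there is 1 group.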

Other observations

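Beyond the ribosomal proteins themselves, 8 of 11 genes for other ribosome parts and elongation or release factors were bound in the main list, against 22.3% of all genes. The strongest peaks were at eRF3 (657), which helps end translation, eEF1gamma (576) and eRF1 (429). Rack1, a protein that sits on the small subunit, had a signal of 249 (131 in replicate 1 and 57.2 in replicate 2) and no promoter peak in the list of replicate 3. The gene sta, which encodes a small subunit protein under a name of its own, had 204 in the main list and 89.8 in replicate 3, with none in replicates 1 and 2. In single replicates 9, 6 and 7 of the 11 were bound.

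Of 24 genes for ribosome assembly, 12 were bound in the main list, against 22.3% of all genes, and 10, 11 and 9 in replicates 1, 2 and 3. They were led by Ns2 (866), a nucleolar GTPase, eIF6 (656), which keeps the subunits apart, and nop5 (537), a part of the snoRNA-guided methylation complex. Of 11 regulators of ribosomal protein genes or growth found by name, 8 were bound in the main list, again against 22.3% of all genes, but 4, 4 and 7 in replicates 1, 2 and 3, against 19.3%, 13.4% and 18.3%, and 4 in all 3 replicate lists. M1BP had a signal of 836 (371, 206 and 264 in replicates 1, 2 and 3) and foxo had 691 (293, 171 and 237). Myc, S6k and raptor were not bound. Among the bound genes, bys of the assembly list and Dref of the regulators were counted through the peaks of RpS6 and RpL13. Ns2 and M1BP were the only 2 genes of the 3 lists with a signal above 800, and both were below RpS27 (889).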
